A study of Mus musculus with 4 samples.

Results

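The mitochondrial ribosomal proteins are the nuclear-encoded proteins of the ribosome inside mitochondria. They were taken as every row whose symbol begins with Mrpl or Mrps followed by a digit and whose mean level over the 4 samples was at least 1 FPKM. This gave 78 of the 12612 genes tested, 29 named for the small subunit (Mrps) and 49 for the large subunit (Mrpl), out of 28074 symbols in the table. The rule used names and levels only, not the response to treatment.

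The mitochondrial ribosome translates the few mRNAs of the mitochondrial genome, which encode core subunits of the respiratory chain and ATP synthase. Its small subunit holds the mRNA and reads the codons, and its large subunit forms the peptide bonds and passes the new chain out through an exit tunnel to the inner membrane. The ribosomal RNAs come from mitochondrial DNA, whereas all the proteins are made in the cytosol and imported, so the particle depends on transcripts from both genomes. Nucleated blood cells carry this machinery in all lineages, and leukaemic myeloid cells are known for a high reliance on mitochondrial translation.

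RNA sequencing was done on leukaemic spleen cells of 2 mice, numbered 4050 and 4182, whose genotype is given as Dnmt3afl/fl, Flt3ITD/ITD and Mx1Cre. All 4 samples share these alleles. The floxed gene codes for an enzyme that methylates DNA, Flt3ITD is an activated cytokine receptor of blood progenitors, and Mx1Cre is a recombinase under an interferon-inducible promoter. The same labels also call the leukaemia Dnmt3a+/-, and which genotype applies was not settled here. The cells were thawed, rested in medium with serum, SCF, IL6 and IL3, and cultured for 3 days with vehicle (control, n = 2) or with 10 µg/ml R848 (n = 2). R848, or resiquimod, is an imidazoquinoline that activates TLR7, a receptor for RNA in endosomes. Each mouse gave 1 control and 1 R848 sample, so the groups are pairs by animal, and the question was which genes and pathways change with R848. No age is given for the animals.

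The cells were whole spleen cells after red cell lysis, not a sorted population. Myeloid markers were abundant, with summed levels of 6516 to 7793 FPKM for 8 progenitor and myeloid genes and 46730 to 85250 FPKM for 5 neutrophil genes. No marker on the 7 cell type lists was at 0 in all 4 samples. The B and plasma cell markers summed to 553 and 704 FPKM in the controls and to 1812 and 1503 FPKM with R848 (mice 4050 and 4182). Most of the control sums was Xbp1, at 515 and 667 FPKM. Xbp1 measured 599 and 543 FPKM with R848, a log2 difference of -0.04. The immunoglobulin genes Ighm and Igkc rose, Igkc from 4.90 and 2.74 FPKM to 601 and 507 FPKM. The T cell markers summed to 5.91 to 7.57 FPKM in the controls and 13.8 to 17.1 FPKM with R848. The macrophage markers summed to 167 to 227 and 360 to 431 FPKM, with C1qb higher and Mrc1 lower (limma adjusted p = 0.0111 and 0.0228, both lost under several other settings). These sums include markers whose mean passed the level limit through the R848 samples. One is Marco, at 1.32 and 0.125 FPKM in the controls and 102.7 and 86.5 FPKM with R848. The calls of such markers were not counted. Of the 8 progenitor and myeloid markers none was called. With the mouse as a block Cd34 was called at a log2 difference of -1.11 and Csf1r at 0.67. The part of these shifts in the results below was not tested, and in bulk samples fewer cells of a type cannot be told apart from less RNA per cell. Depth is unknown, since the table holds no counts. One sample stood apart in its most abundant rows: the predicted genes Gm15662 and Gm12913 together held 11.4% of the R848 sample of mouse 4182, against 1.86% and 2.00% of the controls and 0.208% of the R848 sample of mouse 4050.

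Among the 78 members were 2 rows that are processed pseudogenes in the GENCODE M21 annotation of GRCm38, Mrpl48-ps and Mrpl23-ps1. The other 76 are protein-coding genes, spread over 17 chromosomes. A processed pseudogene is a copy of a spliced mRNA put back into the genome, and its sequence can be so close to that of its parent that reads cannot be told apart. The sequences are shown because the measured levels of 2 parent genes depend on how reads were shared with these copies. Mrpl48-ps lies on the minus strand at chr4:88599175-88599810 and Mrpl48 on the minus strand at chr7:100545751-100608301. Over all 636 bases the pseudogene transcript matched its closest Mrpl48 transcript at 624 positions, an identity of 98.1% with no gap. Positions 330 to 449 of the coding sequence and of the pseudogene transcript are printed 5′ to 3′, with the 7 positions that differ in capitals.
Mrpl48: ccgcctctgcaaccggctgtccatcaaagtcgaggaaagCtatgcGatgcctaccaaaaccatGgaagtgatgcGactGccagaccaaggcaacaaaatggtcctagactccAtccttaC
Mrpl48-ps: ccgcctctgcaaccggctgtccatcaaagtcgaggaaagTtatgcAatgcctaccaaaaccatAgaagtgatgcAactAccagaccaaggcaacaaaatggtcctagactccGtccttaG

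Mrpl23-ps1 lies on the minus strand at chr2:74591330-74591909, and Mrpl23 on the plus strand at chr7:142532686-142540747. Of the 580 bases of this pseudogene 540 aligned to its closest Mrpl23 transcript, with no mismatch at all. The first 120 coding bases of Mrpl23 and positions 18 to 137 of the pseudogene transcript, also 5′ to 3′, hold no capitals because they are the same.
Mrpl23: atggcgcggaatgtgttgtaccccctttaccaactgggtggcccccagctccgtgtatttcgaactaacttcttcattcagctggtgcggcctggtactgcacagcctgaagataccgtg
Mrpl23-ps1: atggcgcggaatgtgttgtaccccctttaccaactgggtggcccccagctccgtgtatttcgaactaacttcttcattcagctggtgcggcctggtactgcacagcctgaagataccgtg
Of the words of 31 bases in the pseudogene transcripts, 510 of 550 (92.7%) in Mrpl23-ps1 and 344 of 606 (56.8%) in Mrpl48-ps were also present in the parent gene. All annotated transcripts of the parent were counted here, not only the closest. The kallisto program, named in the submitters' processing notes, assigns reads by such shared words and divides ambiguous reads between transcripts.

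The 78 members were transcripts of middle to high level. Their median mean level over the 4 samples was 48.1 FPKM, against 16.0 FPKM over all genes tested, and they ranged from 7.34 to 254 FPKM. The median level was 47.8 FPKM in the small subunit (10.2 to 191) and 48.4 FPKM in the large subunit. Levels are per transcript length, so they can be compared between genes, although the proteins enter the ribosome in equal numbers for the most part. Proteins with a bacterial counterpart (46 genes, median 57.2 FPKM) and those specific to mitochondria (29 genes, 47.7 FPKM) overlapped over most of their range.

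In the large subunit Mrpl33, a small protein with a bacterial counterpart, had the highest level of all members. It measured 298.9 and 248.6 FPKM in the controls and 243.0 and 225.5 FPKM with R848 (mice 4050 and 4182, the order used for every pair of values). Both R848 samples lay below both controls, and the log2 difference of -0.22 (95% interval -0.60 to 0.16) did not pass the test (limma adjusted p = 0.693). Next came Mrpl18, whose bacterial counterpart binds the smallest ribosomal RNA and which sits at the central protuberance of the large subunit, at 137.4 and 111.0 FPKM in the controls and 143.5 and 137.5 FPKM with R848. Mrpl51, a mitochondria-specific protein, followed at 131.2 and 97.0 FPKM and at 128.3 and 119.1 FPKM. The control of mouse 4182 was the lowest of the 4 samples for both genes.

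In the small subunit Mrps21 was highest, with 194.0 and 174.9 FPKM in the controls and 193.8 and 201.9 FPKM with R848. Mrps16 measured 122.2 and 127.8 FPKM in the controls and 131.5 and 153.4 FPKM with R848, so its groups did not overlap. Mrps18c, the third, had 94.99 and 88.2 FPKM in the controls and 119.7 and 100.2 FPKM with R848. These 3 genes encode counterparts of bacterial small subunit proteins, and their log2 differences of 0.10, 0.18 and 0.26 had intervals that included 0.

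The lowest small subunit levels were those of Mrps6, Mrps27 and Mrps2. Mrps6 measured 11.2 and 9.85 FPKM in the controls and 9.29 and 10.5 FPKM with R848. Mrps27 had 13.4 and 12.4 FPKM in the controls and 14.8 and 12.7 FPKM with R848. Mrps2 had 22.6 and 18.4 FPKM in the controls and 20.6 FPKM in both R848 samples. The groups overlapped for all 3 genes. In the large subunit the lowest means belonged to Mrpl48-ps, Mrpl17 and Mrpl23, of which the first and last are touched by the pseudogene copies. Just outside the rule lay Mrps36-ps1, listed at 0 in every sample, and Mrps36-ps2, at 0.384 FPKM in the control of mouse 4050 and listed at 0 in the other 3. The closest member inside was Mrpl48-ps with a mean of 7.34 FPKM, so no member was near the limit of 1 FPKM.

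**Figure D1:**
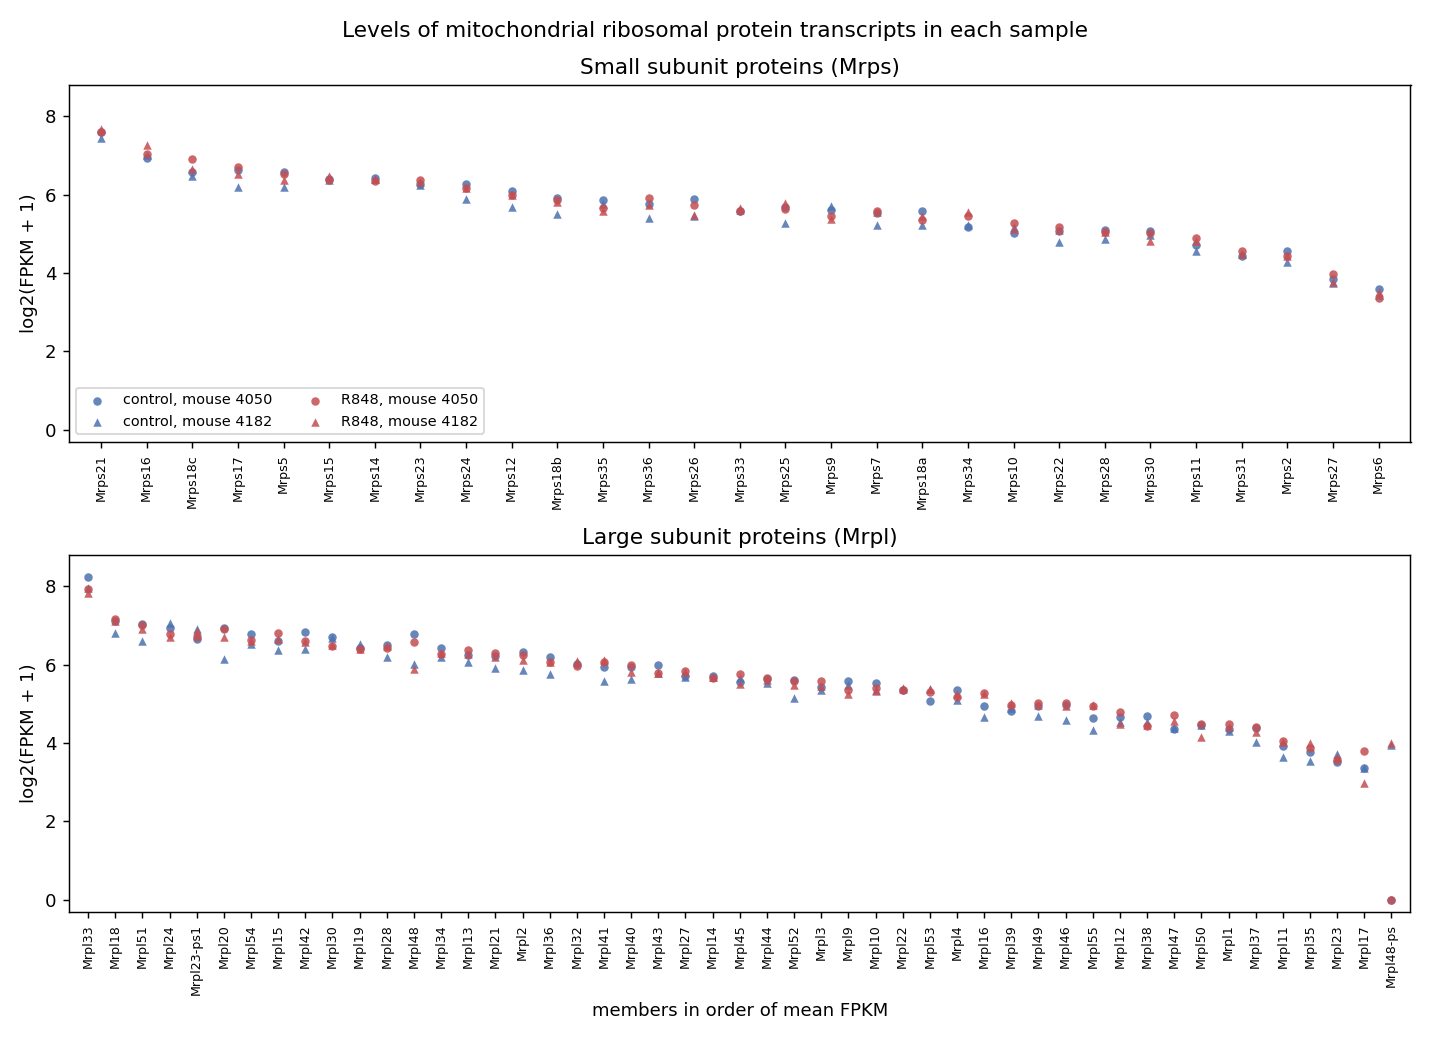
Levels of each mitochondrial ribosomal protein row on the log2(FPKM + 1) scale (vertical axis), with members ordered by mean FPKM along the horizontal axis, small subunit above and large subunit below; each point is 1 sample, blue for control and red for R848, circles for mouse 4050 and triangles for mouse 4182. The 4 points of a member mostly lie close together, the blue triangles are often the lowest, and Mrpl48-ps is at 0 in both samples of mouse 4050.

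With R848, none of the 78 members passed the test (limma, Benjamini-Hochberg adjusted p under 0.05), where 1.85% of the 12612 genes did (1.47% higher and 0.381% lower). Again none passed when the mouse was fitted as a block, against 5.3% of all genes. The fits without filter or with other scalings also called none. Over all genes they called 0 without filter, 88 with quantile normalization, 105 with median log ratio scaling and 105 with the 5 most abundant rows left out. With so few calls over all genes, the lack of calls under these settings says little about the members. At an unadjusted p under 0.05 there were 2 members, Mrpl55 and Mrpl16, against 11.5% of all genes. The median standard error of a member's log2 difference was 0.17, against 0.20 over all genes. The 95% interval lay within 1 log2 unit of 0 for 77 members, the exception being Mrpl48-ps. The intervals of 2 members, Mrpl55 and Mrpl16, excluded 0 before adjustment.

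The differences of the members were small, and more were above 0 than below. Their median log2 difference was 0.09, with the middle 50% between -0.03 and 0.18 and the ends at -0.26 (Mrpl24) and 0.47 (Mrpl55). Over all genes the median was -0.08. The mean difference was above 0 for 54 members and below 0 for 24, where 37.2% of all genes were above 0. Both mice gave a higher value with R848 for 32 members, beside 22.1% of all genes, and a lower value for 12, beside 38.8%. In the other 34 members the mice differed in sign or a difference was 0. The 2 R848 samples lay above both controls in 21 members (26.9%), beside 13.5% of all genes, and below both in 9 members (11.5%), beside 28.8%.

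The tilt lay in mouse 4182. In mouse 4050 the median difference was 0.01, with 40 members higher and 37 lower, and over all genes it was 0.00. In mouse 4182 the members' median was 0.14, with 58 higher and 20 lower, while that of all genes was -0.16. The control of mouse 4182 was the lowest of the 4 samples in 45 of the 78 members, although only 23.3% of all genes were lowest there. It was the highest sample for 5 members. Without it the median difference of the members was 0.00, with 39 higher and 39 lower, while that of all genes was -0.08. The sums over all members showed the same order: 4770 and 4173 FPKM in the controls and 4704 and 4554 FPKM with R848. These sums were 0.500%, 0.440%, 0.492% and 0.474% of all FPKM in the same order.

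The scaling of the samples also entered these values. When the 5 most abundant rows were left out and the rest rescaled, the members' median difference was -0.01 in mouse 4050 and 0.25 in mouse 4182, with all genes at -0.01 and -0.06. Scaling by the median log ratio gave 0.01 and 0.33 for the members and 0.00 and 0.01 for all genes. Under that scaling 68 members were higher and 10 lower, against 54 and 24 as deposited. The part of the abundant rows in the difference between mice was not tested beyond these values.

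**Figure D2:**
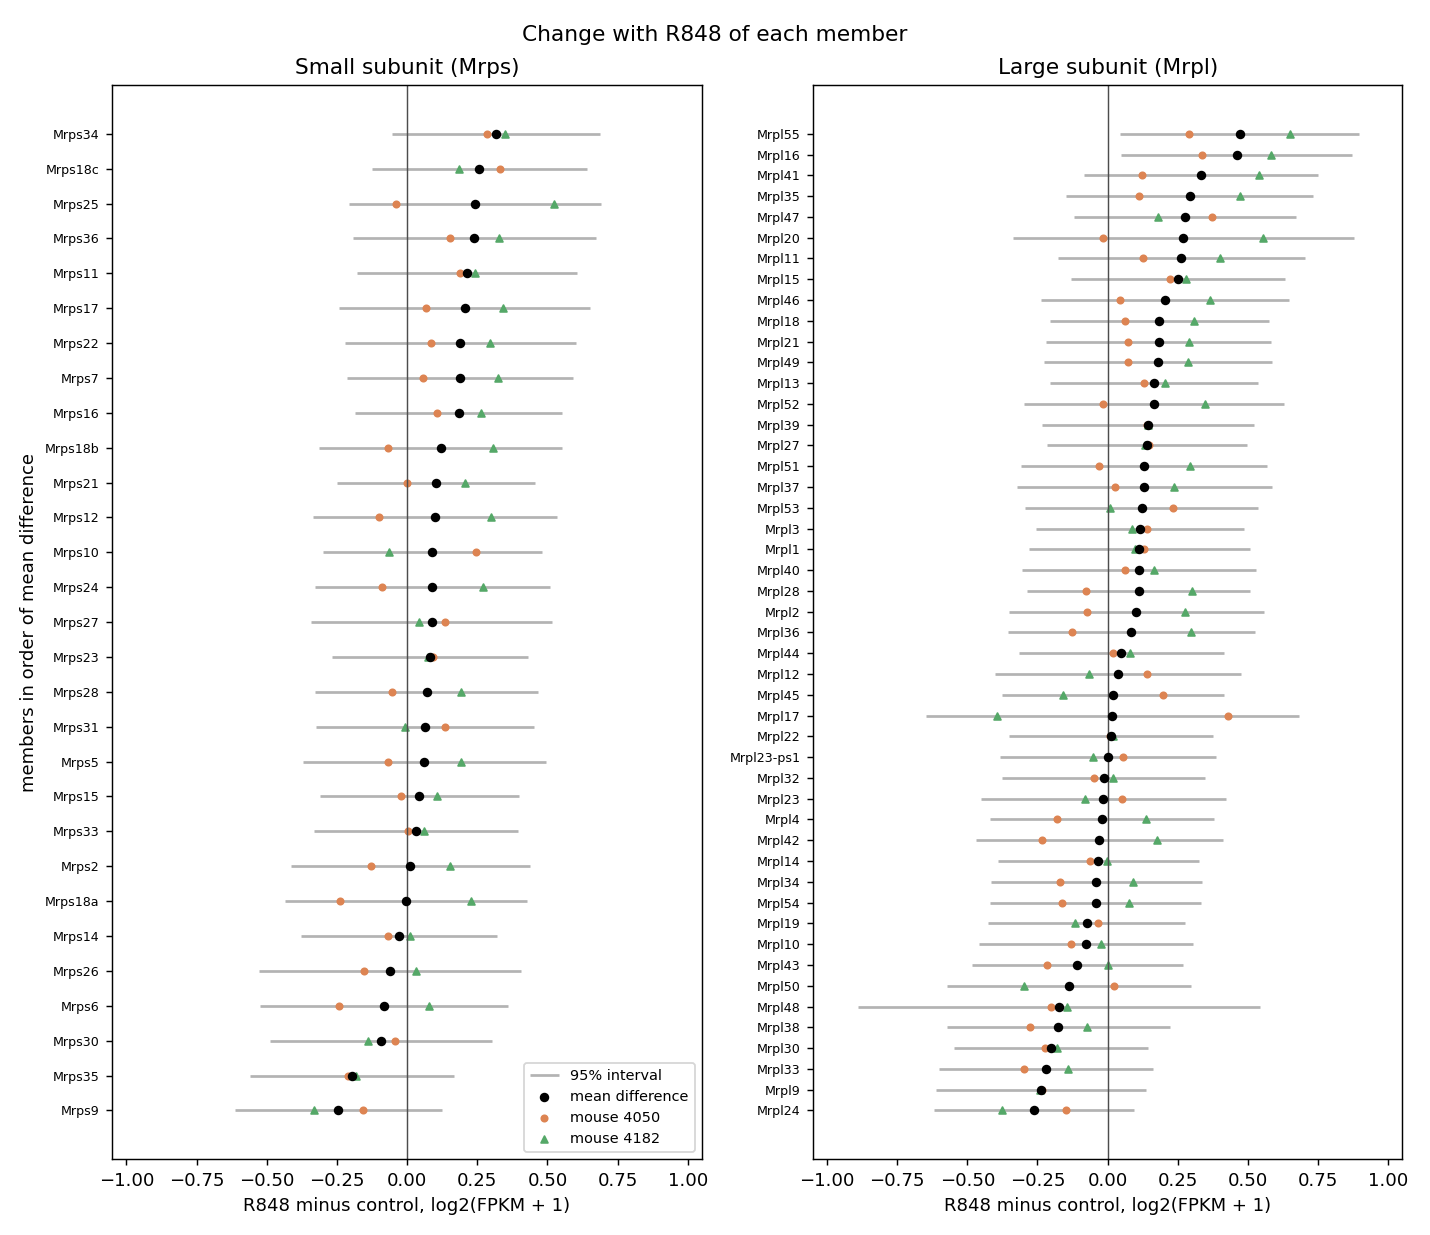
Log2 difference, R848 minus control on log2(FPKM + 1) (horizontal axis), of the members of the small subunit (left) and the large subunit (right), ordered from highest to lowest; black points are means over the 2 mice, grey bars 95% intervals, orange circles mouse 4050 and green triangles mouse 4182. Mrpl48-ps is not drawn because its interval is far wider than the axis; only the intervals of Mrpl55 and Mrpl16 exclude 0.

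The highest difference belonged to Mrpl55, a mitochondrial large subunit protein (chromosome 11, bases 59202486 to 59206134, plus strand). Its levels were 24.1 and 19.1 FPKM in the controls and 29.7 and 30.6 FPKM with R848. Both R848 samples lay above both controls. The log2 difference was 0.47 (SE 0.18, 95% interval 0.04 to 0.90, limma adjusted p = 0.363), or 1.39-fold on the log2(FPKM + 1) scale.

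Mrpl16, which lies near the peptidyl transferase centre (chromosome 19, bases 11770391 to 11774960, plus strand), measured 29.9 and 24.3 FPKM in the controls and 38.0 and 36.8 FPKM with R848. Again the groups did not overlap, and the log2 difference was 0.46 (SE 0.18, 95% interval 0.05 to 0.87, limma adjusted p = 0.355). Mrpl41 had 60.2 and 46.8 FPKM in the controls and 65.6 and 68.5 FPKM with R848, a log2 difference of 0.33 (0.15 without the control of mouse 4182). Mrpl35 had 12.7 and 10.6 FPKM and then 13.7 and 15.1 FPKM, a log2 difference of 0.29. In both of these the R848 samples were the higher pair, and in both the step was larger in mouse 4182.

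In the small subunit the highest difference was that of Mrps34, a mitochondria-specific protein (chromosome 17, bases 24895116 to 24897502, plus strand). Its levels were 35.3 and 36.3 FPKM in the controls and 43.2 and 46.5 FPKM with R848. The 2 controls were close to each other, both mice were higher with R848, by 0.28 and 0.35 on the log2 scale, and the mean log2 difference of 0.32 did not pass (limma adjusted p = 0.516). Mrps25 was less even: 50.2 and 37.6 FPKM in the controls became 48.8 and 54.4 FPKM with R848, with log2 differences of -0.04 in mouse 4050 and 0.52 in mouse 4182. Mrps36, counted here by its name, had 53.0 and 41.2 FPKM in the controls and 59.1 and 51.9 FPKM with R848. Its protein is now known better as a subunit of the oxoglutarate dehydrogenase complex than as part of the ribosome.

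The lowest differences were those of Mrpl24 in the large subunit and Mrps9 in the small. Mrpl24, a protein near the exit tunnel (chromosome 3, bases 87919506 to 87923672, plus strand), had 121.3 and 133.5 FPKM in the controls and 109.5 and 102.6 FPKM with R848. The groups did not overlap, and the log2 difference was -0.26 (SE 0.15, limma adjusted p = 0.589). Mrps9, at the head of the small subunit, had 47.8 and 51.4 FPKM in the controls and 42.7 and 40.6 FPKM with R848, a log2 difference of -0.24. Mrpl9 measured 47.3 and 44.1 FPKM and then 40.1 and 37.2 FPKM, a log2 difference of -0.24. For these 3 genes both R848 samples were below both controls.

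Mrpl30 and Mrps35 shared that pattern. Mrpl30 had 103.7 and 101.5 FPKM in the controls and 88.6 and 89.4 FPKM with R848, and Mrps35, also a head protein, had 57.1 and 53.2 FPKM and then 49.2 and 46.8 FPKM. Each had a log2 difference of -0.20. Mrps30, named for the small subunit but found in the large subunit of the solved structures, was at 32.6 and 30.3 FPKM in the controls and 31.6 and 27.4 FPKM with R848. Its groups overlapped, at a log2 difference of -0.09.

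The mice disagreed most for Mrpl20, Mrpl17 and Mrps25. Mrpl20, a core protein of the large subunit, had 120.6 and 69.7 FPKM in the controls and 119.4 and 102.7 FPKM with R848. Only the control of mouse 4182 was low, and the log2 differences were -0.01 and 0.55. Mrpl17, next to the exit tunnel, had 9.36 and 9.31 FPKM in the controls and 12.9 and 6.84 FPKM with R848. Its controls were close and its R848 samples lay on either side of them, at log2 differences of 0.43 and -0.40.

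The small subunit was not separated from the large subunit in its median response. Its median log2 difference was 0.09 (-0.02 in mouse 4050 and 0.19 in mouse 4182), and that of the large subunit was 0.08 (0.02 and 0.10). Both mice were higher with R848 in 11 of 29 small subunit members and lower in 3, and in 21 and 9 of 49 large subunit members. Non-overlapping groups were found in 7 small subunit members with the R848 samples above, and in 2 with them below. The large subunit had 14 and 7. As shares these were 24.1% and 6.90% of the small subunit and 28.6% and 14.3% of the large, beside 13.5% and 28.8% of all genes. When Mrps18a and Mrps30 were moved to the large subunit, where the structures place them, and Mrps36 was left out, the medians were 0.09 and 0.05.

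The summed levels set the subunits slightly apart. The small subunit summed to 1715 and 1518 FPKM in the controls and 1735 and 1712 FPKM with R848. The large subunit summed to 3055 and 2654 FPKM in the controls and 2969 and 2841 FPKM with R848. The ratio of the sums, small over large, was 0.562 and 0.572 in the controls and 0.584 and 0.603 with R848. Both R848 ratios lay above both controls. The ratios were described without a test, since an exact permutation test of 2 samples against 2 cannot go below a two-sided p of 0.333, and the sums are led by a few abundant genes.

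Within the subunits, members were grouped by the place of their protein in the particle, as far as this is known with certainty (54 of the 78). The 5 proteins of the decoding site and mRNA path (Mrps2, Mrps5, Mrps12, Mrps24 and Mrps28) were all lower with R848 in mouse 4050 and all higher in mouse 4182, with a median log2 difference of 0.07. The 14 proteins of the small subunit body and platform were all higher in mouse 4182, and 8 of them in both mice (median 0.15). The 7 head proteins were divided, 2 higher in both mice and 2 lower in both, at a median of 0.03. In mouse 4182, 3 of the head proteins were higher and 4 lower.

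In the large subunit the 11 proteins of the core and around the peptidyl transferase centre had a median log2 difference of 0.14, and 6 were higher in both mice. The 5 central protuberance proteins had a median of 0.11, the 5 stalk proteins, which recruit translation factors, 0.04, and the 7 exit tunnel proteins 0.02. Members with a bacterial counterpart and mitochondria-specific members had medians of 0.09 and 0.08.

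The 3 Mrps18 paralogs are related proteins. Mrps18c was counted here among those with a bacterial counterpart, and Mrps18a and Mrps18b as mitochondria-specific. Mrps18a had 47.1 and 36.2 FPKM in the controls and 39.8 and 42.6 FPKM with R848, and a log2 difference of -0.00. Mrps18b had 59.5 and 44.8 FPKM in the controls and 56.8 and 55.7 FPKM with R848, a difference of 0.12. Mrps18c, described above, was the most abundant of the 3 in every sample and the only one whose R848 samples both exceeded both controls. A test of the difference between the paralogs was not run.

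In 2 rows, Mrpl48-ps and its parent Mrpl48, the animals differed more than the treatments. Mrpl48-ps was listed at 0 in both samples of mouse 4050 and at 14.4 FPKM (control) and 15.0 FPKM (R848) in mouse 4182. Mrpl48, whose protein sits at the central protuberance, had 108.5 FPKM (control) and 94.2 FPKM (R848) in mouse 4050 and 64.2 and 57.9 FPKM in mouse 4182. The mice thus did not overlap for either row, and within a mouse the control and R848 values were close. Mrpl48-ps reached the level limit through mouse 4182 alone, so it is described here without a test. In a limma fit with mouse and treatment, a comparison added after seeing the data, Mrpl48 differed by -0.72 (mouse 4182 minus mouse 4050 on the log2 scale, SE 0.15, adjusted p = 0.0373). Among the other 77 members it was the only one called between the mice, a share near the 1.36% of all genes called. The 2 samples of a mouse served as its replicates there, so this p-value does not measure the spread between animals.

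Adding the pseudogene row to its parent narrowed the gap between the mice but did not close it. The sums were 108.5 and 94.2 FPKM in mouse 4050 (control, R848) and 78.6 and 72.9 FPKM in mouse 4182, where the pseudogene row held 18.3% and 20.5% of the sum. For Mrpl23, a protein at the exit tunnel, the split was the same in all samples. Mrpl23 had 10.5 and 12.2 FPKM in the controls and 10.9 and 11.5 FPKM with R848, while Mrpl23-ps1 had 99.5 and 118.4 FPKM and then 103.3 and 114.3 FPKM. The pseudogene row thus held 90.5% to 90.9% of the combined value in every sample. The level of Mrpl23 as listed is uncertain for that reason, and so is that of Mrpl48. A difference in sequence between the animals at these loci was not tested.

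**Figure D3:**
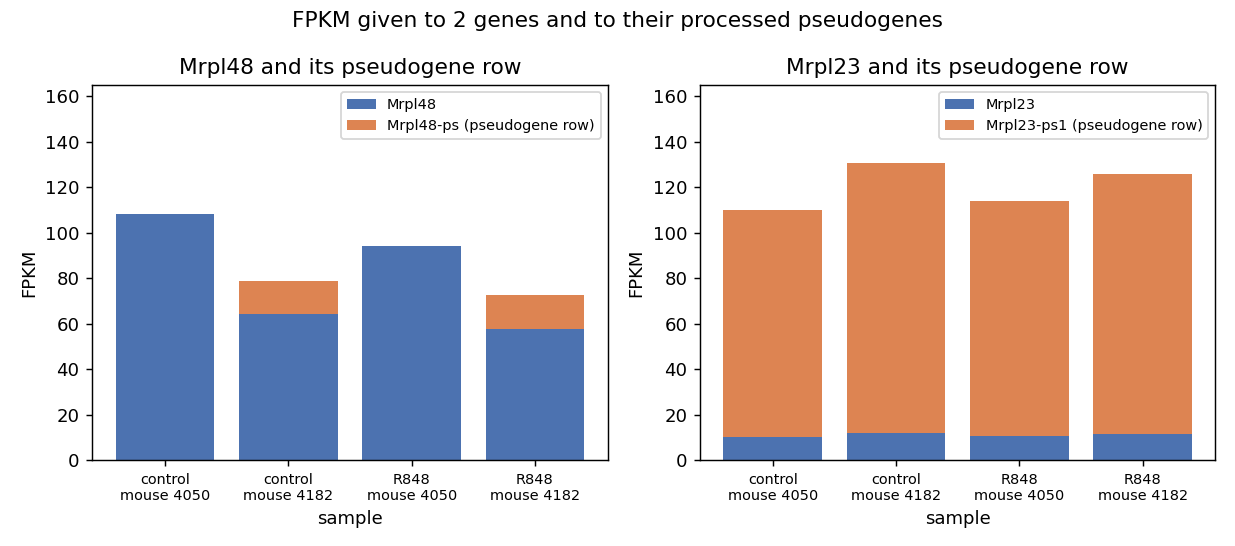
FPKM (vertical axis) listed in each sample for Mrpl48 (left) and Mrpl23 (right), in blue, with the row of the processed pseudogene stacked on top in orange; each bar is 1 sample. Mrpl48-ps appears only in mouse 4182, at 18.3% and 20.5% of the bar, whereas Mrpl23-ps1 holds 90.5% to 90.9% of the bar in all 4 samples.

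The other parts of the machinery were read from lists of genes that act with the mitochondrial ribosome, and no gene of these lists was called without the block. The 7 mitoribosomal proteins with other names, among them Dap3 and Chchd1, had a median log2 difference of 0.02. Chchd1 had 115.8 and 104.2 FPKM in the controls and 133.5 and 136.5 FPKM with R848, a log2 difference of 0.30 (limma adjusted p = 0.533). Dap3, a GTP-binding small subunit protein, had 94.5 and 90.8 FPKM and then 91.1 and 78.4 FPKM, a difference of -0.13 (limma adjusted p = 0.823). The R848 samples were the higher pair for Chchd1 and overlapped with the controls for Dap3.

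For assembly factors, which modify the ribosomal RNA and help the subunits to form, the median of 27 genes was -0.07, with 5 higher in both mice and 12 lower. Over all genes tested the median was -0.08, with 22.1% higher in both mice and 38.8% lower. These values also stand beside the lists that follow, and no list was tested against them. Mrm1, a methyltransferase of the large ribosomal RNA, had 14.8 and 13.9 FPKM in the controls and 10.2 and 8.87 FPKM with R848. Tfb1m, which dimethylates the small ribosomal RNA, had 15.3 and 15.0 FPKM in the controls and 11.3 and 12.3 FPKM with R848. Both genes had both R848 samples below both controls, at log2 differences of -0.55 and -0.33 (limma adjusted p = 0.281 and 0.546).

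For translation factors the median of 17 genes was -0.10, with 3 higher in both mice and 8 lower. Mrrf, the ribosome recycling factor, had 11.4 and 13.3 FPKM in the controls and 8.68 and 6.47 FPKM with R848, a log2 difference of -0.65 (limma adjusted p = 0.263). Slirp, which stabilises mitochondrial mRNAs, had 139.3 and 110.6 FPKM and then 153.7 and 174.6 FPKM, a difference of 0.40 (limma adjusted p = 0.460). The 2 genes thus lay on opposite sides of 0, each without overlap between the groups.

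The mitochondrial aminoacyl-tRNA synthetases, which charge the tRNAs, had a median of -0.14 over 20 genes, with 2 higher in both mice and 10 lower. Nars2 had 17.1 and 15.2 FPKM in the controls and 9.88 and 12.1 FPKM with R848, a log2 difference of -0.52 (limma adjusted p = 0.340). Lars2, chosen after its values were seen, stood apart with 1539 and 1154 FPKM in the controls and 125 and 7051 FPKM with R848. It was thus lowest in one R848 sample and highest in the other, the same order of the R848 samples as for Gm15662 and Gm12913.

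The mitochondrial mRNAs that the ribosome translates were mixed. Of 13 tested mtDNA-encoded genes 4 were higher in both mice and 5 lower, and the median was -0.11 (0.14 in mouse 4050 and -0.36 in mouse 4182). mt-Nd5, a complex I subunit, had 117.9 and 128.8 FPKM in the controls and 83.9 and 77.0 FPKM with R848. It lay lower in both mice, at a log2 difference of -0.61, and was called with the block only (limma adjusted p = 0.132 without it and 0.0371 with it). mt-Nd4l differed by -0.65, from 61.9 and 80.2 FPKM to 50.4 and 39.5 FPKM (limma adjusted p = 0.238).

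The genes that drive mitochondrial gene expression showed no call. The median was -0.11 over 9 genes of mtDNA transcription and maintenance and -0.19 over 9 regulators of nuclear mitochondrial genes. Myc, a transcription factor known to act on many mitochondrial genes, had 61.2 and 65.1 FPKM in the controls and 53.0 and 44.2 FPKM with R848. Its log2 difference was -0.38 (limma adjusted p = 0.463), with both R848 samples below both controls. Gabpa, an ETS-family factor, differed by -0.34 (limma adjusted p = 0.561). Tfam, which packages mtDNA and takes part in its transcription, differed by 0.29 (limma adjusted p = 0.681).

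Import and outer membrane genes had a median log2 difference of 0.15 over 17 genes, with 9 higher in both mice and 3 lower. The control of mouse 4182 was below that of mouse 4050 in 16 of the 17, as it was in 61 of the 78 ribosomal members. Over all 12612 genes tested it was below in 6357. Of 11 chaperones and proteases 2 were higher in both mice and 4 lower, with a median of -0.01. Among these Htra2, a protease of the intermembrane space, had 70.8 and 55.6 FPKM in the controls and 96.6 and 97.8 FPKM with R848. Both R848 samples were above both controls, the log2 difference was 0.62, and it was called with the block only (limma adjusted p = 0.184 without it and 0.0417 with it).

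Beside the 2 groups most like them, the mitochondrial ribosomal proteins lay above the cytosolic ribosomal proteins and near the nuclear respiratory chain genes. The 81 cytosolic ribosomal protein genes had a median log2 difference of -0.23 (-0.13 in mouse 4050 and -0.33 in mouse 4182), and 76 of them were lower with R848 in both mice. None of them was called either. The 81 nuclear-encoded respiratory chain and ATP synthase genes had a median of 0.03 (-0.04 and 0.09), with 25 higher in both mice, 25 lower and 1 called lower (3 with the block). The differences between these groups of genes were not tested.

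**Figure D4:**
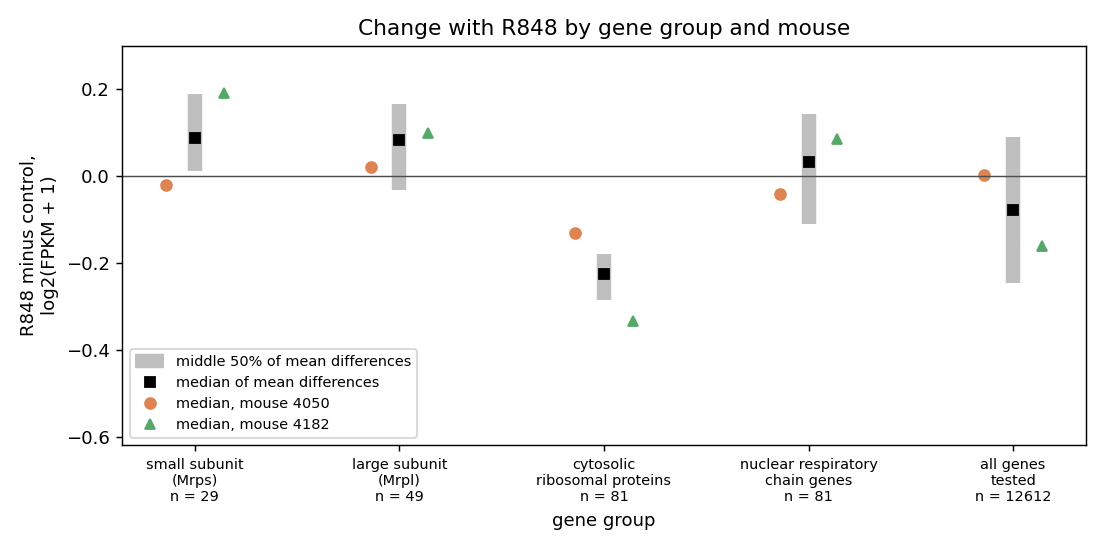
Log2 difference, R848 minus control on log2(FPKM + 1) (vertical axis), for 5 groups of genes (horizontal axis); squares are the median of the mean differences, grey bars the middle 50% of genes, orange circles the median in mouse 4050 and green triangles that in mouse 4182. The 2 mitochondrial ribosomal subunits have medians of 0.09 and 0.08, the cytosolic ribosomal proteins -0.23 and all genes tested -0.08.

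Promoter sequence and neighbouring genes were not used by the rule. A RefSeq promoter window on GRCm38.p6, from 250 bases before to 50 after the start, was matched for 67 of the 78. The ETS motif CCGGAAG, on either strand, was present in 23 of these windows (34.3%), beside 19.2% of 8807 windows of tested genes and 9.12% of all 27025 windows. It was present in 11 of 26 small subunit windows and 12 of 41 large subunit windows. Members with and without it had median log2 differences of 0.10 and 0.09. The palindromic NRF1 motif was present in 3 windows (4.48%, beside 2.21% of tested genes) and the YY1 motif in 5 (7.46%, beside 2.30%). The E-box CACGTG, the core that Myc family proteins read, was present in 5 windows (7.46%, beside 10.4%). The core of the interferon-stimulated response element was present in 3 windows (4.48%, beside 3.22%) and TATAAA in 4 (5.97%, beside 6.74%). The motifs were searched as written on both strands, none of those named contains another, a match is no evidence of binding, and no difference from the other genes was tested.

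Some members start beside another gene. In GENCODE M21, 22 of the 76 protein-coding members (28.9%) had a protein-coding neighbour on the other strand that starts head to head with it within 1000 bases (starts overlapping by up to 200 bases were counted), beside 12.7% of 10774 tested protein-coding genes. Of these partners 21 were tested and none was called without the block. Mrps18c starts 28 bases from Helq, a DNA helicase gene, and Mrps34 starts 28 bases from Eme2, an endonuclease subunit gene. The pairs had log2 differences of 0.26 and 0.25, and of 0.32 and 0.18.

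In other pairs the partners had unlike values. Mrpl49 starts 58 bases from Fau, which encodes a cytosolic ribosomal protein, and they had log2 differences of 0.18 and -0.47. Mrpl32 and the proteasome gene Psma2 start 74 bases apart, at -0.01 and 0.38. Mrpl41 starts 934 bases from Pnpla7, a lipase gene with 52.8 and 53.5 FPKM in the controls and 37.0 and 28.8 FPKM with R848. Pnpla7 was called with the block only, at a log2 difference of -0.69 (limma adjusted p = 0.150 without the block and 0.0340 with it), while Mrpl41 stood at 0.33. These 5 pairs were chosen after their values were seen.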

How the data were processed

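RNA was sequenced from 4 samples, control and R848 from each of 2 mice. Per the labels' protocols, both ribosome depletion and a stranded mRNA kit were used, so which RNA was captured is unsettled. Kallisto and the mm10 build were used, per the submitters' processing notes (versions: not given in the sources used here). What the authors deposited is a table of log2 values, 1 per gene and sample, named log2 FPKM in the file header. Back on the linear scale (2 to the power of the value, minus 1) a sample summed to between 950530 and 962001, which is how TPM behaves. FPKM is kept as the authors' name. The values hold no counts, so no count model and no counting interval was used.

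Of 28192 rows 27 with names turned into dates and 91 repeated symbols (keeping the most abundant row of each) were dropped, which left 28074 symbols. The 12612 with a mean of at least 1 FPKM entered limma 3.58.1 (R 4.3.3) as log2(FPKM + 1), a pseudocount of 1. The variance prior was trended, tests were two-sided, and p was adjusted by Benjamini-Hochberg over all 12612 genes at 0.05. Fold changes on this scale understate the change of low genes. The fit was tested on simulated data. The p-values measure only the spread between these samples, which come from 2 animals. Each gene had 2 residual degrees of freedom, fewer with the block, and limma also drew on the variance of the other genes.

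The labels give the same mouse for samples with the same number, which pairs them. Deviations from the group means correlated at 0.289 between the samples of a mouse, over 12612 genes. The block by mouse was an alternative. So were a pseudocount of 0.1, no filter, a filter at 5 FPKM, quantile normalization, median log ratio scaling, leaving out the 5 most abundant rows, a constant variance prior, subunits by structure, and leaving out each sample. Leaving out the pseudogene rows, the block with each scaling, and the comparison of the mice were added after seeing the data.

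The members and the gene lists were chosen with earlier results of these data known. Members were named by rule: called ones, the 4 highest and 4 lowest log2 differences and the 3 highest and 3 lowest levels in each subunit, the 3 whose mice differed most, the Mrps18 paralogs, and rows just outside the level limit. From each list the called genes, or the 2 with the smallest p, were named; a few are not printed. Places in the ribosome were assigned from textbook knowledge. Positions come from GENCODE M21 on GRCm38, promoter windows from RefSeq on GRCm38.p6, and pseudogene transcripts were aligned locally to each parent transcript, of which the best was kept. Protein sequences were not used here. Figures were made in Python 3.11.15 with matplotlib 3.10.9.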

Additional observations from a re-analysis of the deposited data

How the results depend on the processing

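Depth is unknown, and there were 2 samples in each group, from 2 animals. No member was called under any setting run; the smallest adjusted p among members ranged from 0.146 to 0.739. Over all genes 233 were called. The count was 0 with no filter, 88 with quantile normalization, 105 with median log ratio scaling, 105 with the 5 most abundant rows left out, and 56 to 395 when 1 sample was left out (56 without the R848 sample of mouse 4182, 88 without that of mouse 4050, 395 without the control of mouse 4050). With the replicate block by mouse it was 669, and with the block and those 3 scalings 490, 550 and 557. The block changed no member's call. Cd34, Csf1r, Cd79b and C1qa among the cell type markers counted, mt-Nd5 and Htra2 among the mitochondrial lists, and Pnpla7 among the neighbours passed only with it. The large subunit's median log2 difference of 0.08 was 0.18 with median log ratio scaling and ranged from -0.0045 to 0.15 when 1 sample was left out, the lowest without the control of mouse 4182. The members' median of 0.09 was 0.18 with median log ratio scaling, 0.13 with the 5 rows left out, and 0.00 to 0.15 when 1 sample was left out. The small minus large difference of the medians, 0.00, was -0.0015 with median log ratio scaling, -0.014 without the pseudogene rows and -0.053 to 0.034 when 1 sample was left out, so its sign carries no weight. Of the 78 members 36 kept one direction under all 12 alternatives planned for them, 28 higher and 8 lower. Several of these alternatives could not test direction. No filter, the filter at 5 FPKM, the block and the constant variance prior leave each log2 difference as it is. The pseudocount of 0.1 turned no sign. All signs that turned did so with a scaling or with 1 sample left out. The sign turned for 14 members with median log ratio scaling, 4 with quantile normalization and 9 with the 5 rows left out. Of the members named by the rule, or for their pseudogenes, it turned with median log ratio scaling for Mrps30 (0.0018), Mrps6 (0.0066), Mrpl23 (0.073) and Mrps18a (0.090). It turned with quantile normalization for Mrpl23 (0.050), Mrps18a (0.0076) and Mrpl23-ps1 (-0.023), and with the 5 rows left out for Mrpl23 (0.027) and Mrps18a (0.041). When 1 sample was left out, signs turned and values ranged from -0.19 to 0.0068 for Mrps30, -0.011 to 0.19 for Mrps27, -0.13 to 0.15 for Mrps2, -0.40 to 0.43 for Mrpl17, -0.12 to 0.086 for Mrpl23, -0.085 to 0.35 for Mrpl51, -0.12 to 0.66 for Mrpl20, -0.19 to 0.18 for Mrps18a, -0.081 to 0.32 for Mrps18b, -0.55 to 0.20 for Mrpl48, -0.12 to 0.13 for Mrpl23-ps1 and -1.97 to 2.02 for Mrpl48-ps. The sign also turned for Mmp8, a neutrophil marker and not a member, which ranged from -0.75 to 0.11. Without a change of sign, values moved by more than 1.5 times for Mrpl55 (0.31 to 0.63), Mrpl41 (0.15 to 0.51), Mrpl35 (0.17 to 0.41), Mrpl33 (-0.35 to -0.087), Mrpl18 (0.032 to 0.34), Mrps16 (0.074 to 0.29), Mrps18c (0.13 to 0.38), Mrps21 (0.028 to 0.18), Mrps25 (0.037 to 0.45), Mrps36 (0.061 to 0.42) and Mrps6 (-0.16 to -0.00040). The lone sample left in a group was then assumed to vary like the other group. The calls of C1qb and Mrc1 were lost under several of these settings, and those of Ighm and Igkc with no filter. For the other changes the cause was not tested.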
